A study of Mus musculus with 7 samples.

Results

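The genes described here encode the signaling part of the T cell receptor, its coreceptors and the kinases that act directly on it. They are the invariant CD3 chains Cd3d, Cd3e and Cd3g, the zeta chain Cd247, the coreceptor chains Cd8a, Cd8b1 and Cd4, and the tyrosine kinases Lck and Zap70. The 9 members were taken by symbol from 53465 genes of a table of estimated RNA counts, and each symbol matched 1 identifier. The table holds 7 libraries from mammary tumors that grew from the mouse carcinoma cell line EMT6 after an injection of 500000 cells into a fat pad of young adult female Balb/cAnNCr mice. Mice received 250 μg of antibody every 3 days from day 1 until the institutional endpoint. The 3 EMT6-P tumors grew under an isotype control antibody, and the 3 EMT6-PTR tumors, written PDR in the sample labels, under αPD-L1 antibody (clone 80) and were labelled resistant to it. One further library came from a metastasis of the αPD-L1 resistant variant, for which the labels give neither a replicate number, nor the organ, nor the animal. All tumors came from 1 parental cell line in an immunocompetent host, and RNA was taken from bulk tumor tissue with no sorting of immune cells.

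A T cell recognizes a peptide on an MHC molecule through the variable α and β chains of its receptor, which have almost no cytoplasmic part. Signaling is left to the CD3 dimers and the zeta homodimer, whose tails carry immunoreceptor tyrosine-based activation motifs (ITAMs). CD4, on helper and regulatory T cells, binds MHC class II, and CD8, on cytotoxic T cells, binds MHC class I. Both bring Lck to the engaged receptor, where it phosphorylates the ITAM tyrosines. Zap70 docks on the phosphorylated pairs and passes the signal to the adaptors Lat and Lcp2. PD-1, the receptor that PD-L1 engages, dampens this pathway on T cells. The genes are not unique to αβ T cells: mouse natural killer (NK) cells also express Cd247, Lck and Zap70, a class of dendritic cells expresses Cd8a without Cd8b1, and some myeloid cells carry Cd4.

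The stretches of coding sequence that these kinases act on or bind are shown because the members differ in how many of them they hold. Each was read from the coding part of the principal GENCODE M21 transcript on GRCm38. An ITAM was searched as a tyrosine codon, any 2 codons, a leucine or isoleucine codon, 6 to 8 further codons and the same group again. Capitals mark the codons of the tyrosine pair, and the stretches run 5′ to 3′ on the coding strand.
Cd3d: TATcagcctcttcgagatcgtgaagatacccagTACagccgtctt
Cd3e: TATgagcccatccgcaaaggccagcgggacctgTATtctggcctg
Cd3g: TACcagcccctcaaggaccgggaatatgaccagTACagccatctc
Cd247, ITAM 1: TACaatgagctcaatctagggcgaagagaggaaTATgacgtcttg
Cd247, ITAM 2: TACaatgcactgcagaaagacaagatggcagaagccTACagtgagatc
Cd247, ITAM 3: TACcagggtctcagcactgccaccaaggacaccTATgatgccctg
Each CD3 chain held 1 ITAM and the zeta chain 3, and each of the 6 was split over 2 consecutive exons. The Cd3d stretch lies within chr9:44986095-44986311 on the plus strand in exons 4 and 5 of 5. The Cd3e stretch lies within chr9:44999549-45000440 on the minus strand in exons 7 and 8 of 8, and that of Cd3g within chr9:44970735-44971268 on the minus strand in exons 5 and 6 of 7. The Cd247 stretches lie within chr1:165856451-165857454, chr1:165858473-165859260 and chr1:165859819-165861042 on the plus strand, in exons 3 to 8 of 8. The second ITAM of Cd247 spans 16 codons and the others 15.

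The coreceptors hold Lck through a pair of cysteines in their tails, searched as a cysteine codon, any codon, a cysteine codon and a proline codon. Capitals mark the cysteine codons.
Cd8a: TGCaaaTGTccc
Cd4: TGCcagTGCccc
The Cd8a stretch is at chr6:71375905-71375916 on the plus strand in exon 4 of 5, and the Cd4 stretch at chr6:124866606-124866617 on the minus strand in exon 9 of 10. The same letters were not found in Cd8b1, the chain that pairs with Cd8a on most CD8 T cells. All 9 genes are annotated as protein coding. Cd3g (chr9:44969572-44980431, minus strand), Cd3d (chr9:44981786-44987339, plus strand) and Cd3e (chr9:44998740-45009627, minus strand) are close neighbors that do not overlap. Cd8b1 (chr6:71322788-71337494) and Cd8a (chr6:71373427-71379173) lie near each other on the plus strand, while Cd4 (chr6:124864692-124888221, minus strand) is elsewhere on the same chromosome. Cd247 (chr1:165788681-165877277, plus strand), Zap70 (chr1:36761798-36782818, plus strand) and Lck (chr4:129548344-129573641, minus strand) stand apart.

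Library totals ran from 20430110 to 25213472 estimated counts. Among the EMT6-P and EMT6-PTR tumors, no library repeated another within sampling noise, and the metastasis was not compared in this way. Levels are given as CPM, a gene's counts relative to the size of its library, on the upper-quartile scale, on which 1 count is worth 0.0389 to 0.0554 CPM. The gene CT010467.1 took 13.8% of the counts of EMT6-PTR replicate 2 and between 0.433% and 1.35% of those of the other 6 libraries. Skeletal muscle markers differed among tumors of the same group, with a summed level of 4300 CPM in EMT6-PTR replicate 1 and 3.65 CPM in EMT6-PTR replicate 3. The test of EMT6-PTR against EMT6-P covered 15645 genes, and the quasi-likelihood test of edgeR, adjusted after Benjamini and Hochberg, called 0 of them at 0.05 (0% of the genes), with 1786 at an unadjusted p under 0.05. Limma-voom also called 0, with 1621 unadjusted, and DESeq2 called 281. The labels do not say that the tumors came from separate animals, so that p-values measure the spread between these samples.

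T cell receptor genes were sparse in every primary tumor. The 9 members together held 12.2, 6.50 and 9.71 CPM in EMT6-P replicates 1 to 3 and 9.63, 26.7 and 10.6 CPM in EMT6-PTR replicates 1 to 3. EMT6-PTR replicate 2 stood above all other primary tumors, and the other 2 EMT6-PTR tumors lay within the range of EMT6-P. Ptprc, which encodes the leukocyte antigen CD45, had 63.2, 57.5 and 59.5 CPM in EMT6-P and 83.0, 91.9 and 32.8 CPM in EMT6-PTR. Of the 9 members, 8 passed the filter on low counts, and Cd3d did not. None of the 8 was called, and 1, Cd8a, was higher in EMT6-PTR at an unadjusted p under 0.05, as were 5.84% of all genes tested. All 8 log2 fold changes were above 0, as were 52.3% of all genes, with a median of 0.68 against 0.03 over all genes. This direction rested on 1 tumor: without EMT6-PTR replicate 2, 4 of 8 members were above 0 and the median was -0.10. For all 8 members the highest value among the 6 primary tumors was that of EMT6-PTR replicate 2, which was so for 16% of all genes. A difference in the number of T cells and one in the RNA per T cell cannot be told apart in bulk tissue.

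**Figure D1:**
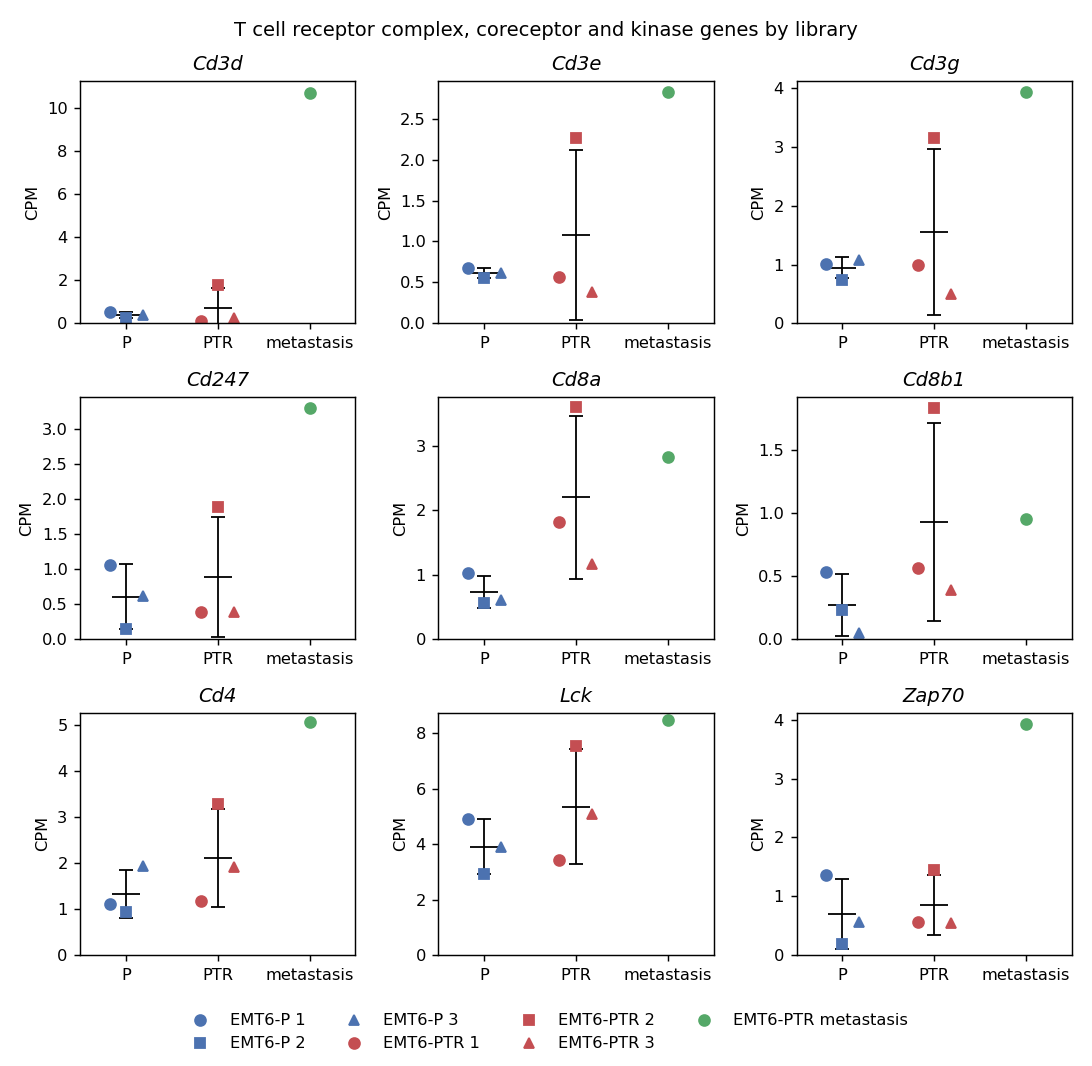
Level of each member in CPM (vertical axes, each starting at 0) in the 3 EMT6-P tumors, the 3 EMT6-PTR tumors and the metastasis; horizontal bars are the mean and whiskers the SD over 3 tumors. EMT6-PTR replicate 2 (red square) is the highest primary tumor in every panel. The groups are apart only for Cd8a, by a margin within counting error.

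Among the CD3 chains, Cd3e, which pairs with both of the other chains, measured 0.678, 0.557 and 0.610 CPM in the EMT6-P tumors and 0.564, 2.27 and 0.389 CPM in the EMT6-PTR tumors. The EMT6-P values were close together, and EMT6-PTR held both the highest and the lowest tumor. The log2 fold change was 0.78 ± 0.71 (SE, n = 3 per group, edgeR adjusted p = 0.657), and -0.37 without EMT6-PTR replicate 2. Cd3g, the partner of Cd3e in the γε dimer, followed nearly the same order among the tumors. It measured 1.02, 0.743 and 1.08 CPM in EMT6-P and 0.998, 3.16 and 0.505 CPM in EMT6-PTR, a log2 fold change of 0.70 ± 0.68 (edgeR adjusted p = 0.681) that became -0.33 without that tumor. Cd3d, the partner in the δε dimer, measured 0.533, 0.232 and 0.375 CPM in EMT6-P and 0.130, 1.77 and 0.233 CPM in EMT6-PTR. These are 11, 5 and 8 counts against 3, 32 and 6 counts, so that Cd3d is near the limit that a count of 0 allows (3 counts, 0.117 to 0.166 CPM) in EMT6-PTR replicate 1. The groups overlapped for Cd3d, and a two-sided exact permutation test on log2 CPM gave p = 0.9, where 3 against 3 tumors cannot go below 0.1. In a fit without the filter its log2 fold change was 0.87 ± 0.95 and it was not called.

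Cd247, which supplies 3 of the ITAMs shown above, varied more within EMT6-P than any CD3 chain. It measured 1.07, 0.139 and 0.610 CPM in EMT6-P and 0.390, 1.88 and 0.389 CPM in EMT6-PTR. The lowest value of the 6 tumors was in EMT6-P replicate 2, at the limit that a count of 0 allows. Its log2 fold change of 0.52 ± 0.90 (edgeR adjusted p = 0.823) was smaller than its standard error. It became -0.62 when EMT6-PTR replicate 2 was left out and 1.21 when EMT6-P replicate 1 was.

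Of the coreceptor genes, Cd8a was the only member whose groups did not overlap. It measured 1.02, 0.557 and 0.610 CPM in EMT6-P (0.728 ± 0.252, SD, n = 3) and 1.82, 3.60 and 1.17 CPM in EMT6-PTR (2.20 ± 1.26, SD, n = 3), or 21, 12 and 13 counts against 42, 65 and 30 counts. Such a pattern, with all EMT6-PTR tumors above all EMT6-P tumors, held for 9.52% of all genes tested, and 1 of 8 members is near that share. The nearest tumors, EMT6-P replicate 1 with 21 counts and EMT6-PTR replicate 3 with 30 counts, differed by a margin within counting error. The log2 fold change was 1.58 ± 0.53 with an unadjusted p of 0.0219 and an edgeR adjusted p of 0.427, and ranged from 1.03 to 1.90 as each tumor was left out. The lowest of these was the fit without EMT6-PTR replicate 2. In that fit, and in those without EMT6-P replicate 2 or EMT6-P replicate 3, no member had an unadjusted p under 0.05. Cd8b1 was the scarcest of the tested members in EMT6-P, at 0.533, 0.232 and 0.0469 CPM, the last being 1 count, and measured 0.564, 1.83 and 0.389 CPM in EMT6-PTR. EMT6-PTR replicate 3 fell below EMT6-P replicate 1, so that the groups overlapped. Its log2 fold change was 1.74 ± 0.90 (edgeR adjusted p = 0.485), with a range of 0.81 to 2.66 as each tumor was left out. Cd8a and Cd8b1 were the 2 of 8 members at least 2-fold higher in EMT6-PTR, a size that 6.27% of all genes reached.

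Cd4 measured 1.11, 0.929 and 1.92 CPM in EMT6-P and 1.17, 3.27 and 1.90 CPM in EMT6-PTR. Only EMT6-PTR replicate 2 exceeded the range of EMT6-P. The log2 fold change was 0.67 ± 0.50 (edgeR adjusted p = 0.593) and stayed above 0, from 0.22 to 1.04, as each tumor was left out.

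Lck, the kinase that phosphorylates the ITAMs, was the best measured member, with 63 to 136 counts. It measured 4.89, 2.93 and 3.89 CPM in EMT6-P and 3.43, 7.53 and 5.09 CPM in EMT6-PTR. Its groups overlapped and its log2 fold change of 0.45 ± 0.37 had the smallest standard error of the 8 (edgeR adjusted p = 0.629). It was 0.13 without EMT6-PTR replicate 2 and 0.69 at the other end of the range as each tumor was left out. Zap70, which docks on the ITAMs, measured 1.36, 0.186 and 0.563 CPM in EMT6-P and 0.564, 1.44 and 0.544 CPM in EMT6-PTR. EMT6-P replicate 1 nearly matched EMT6-PTR replicate 2, and EMT6-P replicate 2 was the lowest. Its log2 fold change was 0.26 ± 0.76 (edgeR adjusted p = 0.904), and leaving out EMT6-PTR replicate 2 gave -0.33. Leaving out EMT6-P replicate 2 gave -0.19, and leaving out EMT6-P replicate 1 gave 1.16.

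**Figure D2:**
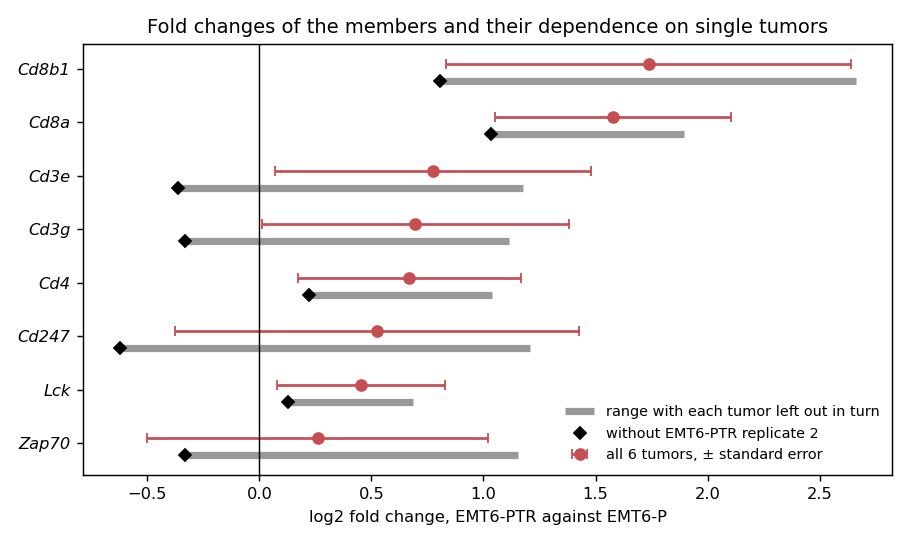
Log2 fold change of EMT6-PTR against EMT6-P (horizontal axis) for the 8 members tested, with the estimate from all 6 tumors ± SE (red), the range over fits that leave out each tumor in turn (gray) and the fit without EMT6-PTR replicate 2 (black diamond). The diamond falls below 0 for Cd3e, Cd3g, Cd247 and Zap70 and is the low end of every range.

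DESeq2 called 138 genes higher in EMT6-PTR, 0.957% of the 14416 genes to which it gave an adjusted p, and none of the members. It gave no adjusted p to 5 of the 8 members, which fell under its filter on mean counts. Its log2 fold change for Cd8a was 1.61, against 1.41 by limma-voom. Limma-voom gave 0.29 for Cd3e and 0.24 for Cd3g, below the edgeR values by over 1.5 times, and 0.47 for Zap70, above it by as much.

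Compared per length, as mean CPM per kilobase of the principal transcript, Lck led in EMT6-P with 1.85, followed by Cd3g with 0.925. The next levels, 0.425 for Cd4, 0.421 for Cd3e, 0.371 for Cd247 and 0.313 for Zap70, lay close to each other, and Cd3d with 0.235, Cd8a with 0.233 and Cd8b1 with 0.183 were lowest. In EMT6-PTR the order again began with Lck at 2.53 and Cd3g at 1.52, and Cd8a, at 0.702, stood beside Cd3e at 0.735 and Cd4 at 0.680. Cd8b1 was at 0.625, Cd247 at 0.544, Cd3d at 0.440 and Zap70 at 0.378. In EMT6-P, Lck stood above Cd3g and Cd3g above Cd4 by more than the SD of either gene. All other neighbors in that order, and all neighbors in the order of EMT6-PTR, differed by less than the larger of their SDs.

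Ratios between members within a library do not depend on how libraries are scaled. The ratio of Cd8a CPM to Cd4 CPM was 0.913, 0.600 and 0.317 in EMT6-P and 1.56, 1.10 and 0.612 in EMT6-PTR. The groups overlapped, with a difference in mean log2 ratio of 0.86 against SDs of 0.77 for EMT6-P and 0.68 for EMT6-PTR. It was 0.46 without EMT6-P replicate 3. Leaving out EMT6-PTR replicate 1 gave 0.56, and leaving out EMT6-PTR replicate 3 gave 1.23. The ratio of Cd8b1 to Cd8a, which would be low where Cd8a came without its partner chain, was 0.524, 0.417 and 0.0769 in EMT6-P and 0.310, 0.508 and 0.333 in EMT6-PTR. The groups overlapped. The difference in mean log2 ratio was 0.55, and -0.32 without EMT6-P replicate 3, with its 1 count of Cd8b1.

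Set against the mean of Cd3d, Cd3e and Cd3g (the CD3 mean), both CD8 chains separated the groups. These ratios were chosen after their values were seen. The ratios fixed earlier, of Cd8a to Cd4, of Cd8b1 to Cd8a, and of Cd247, Lck and Zap70 to the CD3 mean, all overlapped between the groups. How often ratios of other genes separate the groups was not computed. The ratio of Cd8a to the CD3 mean was 1.37, 1.09 and 0.886 in EMT6-P and 3.23, 1.5 and 3.10 in EMT6-PTR. The nearest tumors were EMT6-P replicate 1, with 21 counts of Cd8a, and EMT6-PTR replicate 2, with 65, a margin within counting error. The group difference was 1.17 on the log2 scale and ranged from 0.97 to 1.53 as each tumor was left out. EMT6-PTR replicate 2, the highest tumor for Cd8a and for the CD3 chains, had the lowest ratio of its group, and EMT6-PTR replicates 1 and 3 held Cd8a above the CD3 mean by a larger factor. The ratio of Cd8b1 to the CD3 mean was 0.717, 0.455 and 0.0682 in EMT6-P and 1.00, 0.762 and 1.03 in EMT6-PTR. EMT6-PTR replicate 2 thus lay just above EMT6-P replicate 1, which held 11 counts of Cd8b1, a margin within counting error. The group difference of this ratio, 1.72 on the log2 scale, fell to 0.69 when EMT6-P replicate 3, with 1 count of Cd8b1, was left out. The ratio of Cd8a to Ptprc, also chosen after its values were seen, was 0.0161, 0.00970 and 0.0103 in EMT6-P and 0.0220, 0.0392 and 0.0355 in EMT6-PTR, again without overlap. That of the CD3 mean to Ptprc was 0.0117, 0.00889 and 0.0116 in EMT6-P and 0.00680, 0.0261 and 0.0115 in EMT6-PTR, so that EMT6-PTR held both the lowest and the highest tumor. Dendritic cell markers, from cells of which a class can carry Cd8a, summed to 30.2, 38.9 and 43.5 CPM in EMT6-P and 39.4, 78.9 and 18.5 CPM in EMT6-PTR, of which Itgax, a gene that macrophages also express, held the largest share in 5 of the 6 tumors. Without Itgax the other 7 genes summed to 7.75, 5.95 and 9.43 CPM in EMT6-P and 8.59, 10.7 and 13.2 CPM in EMT6-PTR, and EMT6-PTR replicate 3 went from the lowest to the highest tumor. Both defining markers of the Cd8a-bearing class in the list were low and had their highest values in different tumors. Xcr1, which did not pass the filter, was at 0.145, 0.325 and 0.281 CPM in EMT6-P and 0.260, 1.61 and 0.0777 CPM in EMT6-PTR. Clec9a was at 0.533, 0.232 and 0.750 CPM in EMT6-P and 0.564, 0.609 and 1.13 CPM in EMT6-PTR (log2 fold change 0.61 ± 0.54, edgeR adjusted p = 0.651). The part of these cells in the Cd8a level was not tested.

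The kinases and the zeta chain showed no such separation. Lck was 6.59, 5.73 and 5.66 times the CD3 mean in EMT6-P and 6.08, 3.14 and 13.6 times in EMT6-PTR. The EMT6-P tumors were nearly equal in this ratio (SD of 0.12 on the log2 scale), and the EMT6-PTR tumors lay on both sides of them (SD of 1.06). Cd247 was 1.43, 0.273 and 0.886 times the CD3 mean in EMT6-P and 0.692, 0.785 and 1.03 times in EMT6-PTR. For Zap70 these ratios were 1.83, 0.364 and 0.818 in EMT6-P and 1.00, 0.600 and 1.45 in EMT6-PTR, and for Cd4 1.5, 1.82 and 2.80 in EMT6-P and 2.08, 1.36 and 5.07 in EMT6-PTR. Groups overlapped for all 4 of these ratios.

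**Figure D3:**
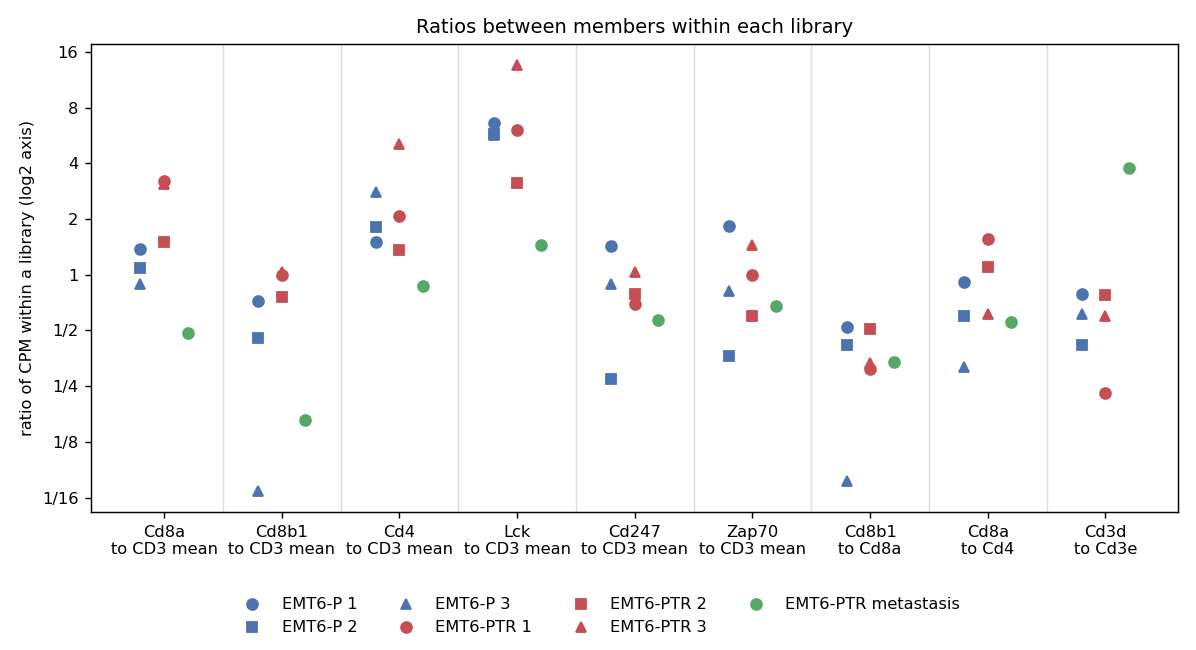
Ratio of CPM between members within each library (log2 vertical axis), where CD3 mean is the mean of Cd3d, Cd3e and Cd3g; blue, red and green are EMT6-P, EMT6-PTR and the metastasis. Of the ratios drawn, those of Cd8a and Cd8b1 to the CD3 mean separate the 3 EMT6-PTR tumors from the 3 EMT6-P tumors. Both were chosen after their values were seen, and both separate by a margin within counting error, EMT6-PTR replicate 2 against EMT6-P replicate 1. The metastasis holds the highest Cd3d to Cd3e and the lowest Lck to CD3 mean.

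In the metastasis, which has no replicate and no test, the members summed to 42.0 CPM, above all 6 primary tumors. Of the 8 members that passed the filter in the primary tumors, 6 were above all 6 primary tumors there, against 20.9% of all genes, and 1, Zap70, was at least 2-fold above the highest of them, against 5.82%. Zap70 was at 3.93 CPM, where the highest primary tumor had 1.44 CPM. Cd247 was at 3.30, Cd4 at 5.05, Cd3g at 3.93, Cd3e at 2.82 and Lck at 8.46 CPM. Cd8a at 2.82 CPM and Cd8b1 at 0.954 CPM were the exceptions, both below EMT6-PTR replicate 2. Cd8a was 0.485 times, Cd4 0.868 times and Lck 1.46 times the CD3 mean, each below all 6 primary tumors, but the CD3 mean of this library is carried by Cd3d. Against the mean of Cd3e and Cd3g alone, a reference chosen after the values were seen, Cd8a was 0.835 times and Cd4 1.49 times that mean, both within the range of the primary tumors. Lck, at 2.51 times, stayed below all 6, of which the lowest was 2.78 times.

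Cd3d, outside the 8, was far higher in the metastasis than in any primary tumor. It held 269 counts, or 10.7 CPM (95% exact Poisson interval 9.45 to 12.0, counting error only), 6.03 times EMT6-PTR replicate 2. The ratio of Cd3d to Cd3e was 3.79 there and between 0.231 and 0.786 in the primary tumors. Per kilobase, Cd3d with 6.61 and Lck with 4.01 led in the metastasis, followed by Cd3g with 3.85, Cd247 with 2.02, Cd3e with 1.93, Zap70 with 1.75, Cd4 with 1.62, Cd8a with 0.902 and Cd8b1 with 0.643. The library also held 8529 CPM of 8 lung epithelium markers, against 6.92 to 31.7 CPM in the primary tumors, with Sftpc at 0.188 CPM or less in every primary tumor and at 2335 CPM in the metastasis. RNA of the tumor and of the tissue around it, including T cells resident in that tissue, cannot be told apart in this library.

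The antigen-binding chains of the receptor itself, in a list of 7 constant region genes, moved in the same tumors. Their summed level was 4.12, 3.76 and 2.34 CPM in EMT6-P, 3.08, 7.59 and 2.29 CPM in EMT6-PTR and 17.6 CPM in the metastasis. Of the 7, 3 were tested and none had an unadjusted p under 0.05. Trac, the α chain constant region, measured 1.26, 1.58 and 0.797 CPM in EMT6-P and 1.26, 2.6 and 0.971 CPM in EMT6-PTR (log2 fold change 0.40 ± 0.49, edgeR adjusted p = 0.743). The near-identical β chain genes Trbc1 and Trbc2 share reads and are uncertain one by one, and had log2 fold changes of 0.81 ± 0.59 and 0.23 ± 0.72. EMT6-PTR replicate 2 was again the highest primary tumor for all 3. The γ and δ constant regions did not pass the filter: Trdc was at 0.743 CPM or less in every primary tumor, Tcrg-C1 and Tcrg-C4 at 0.232 CPM or less and Tcrg-C2 at 0.443 CPM or less.

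Genes that pass the receptor signal on showed few differences. Of 24 activating genes, 20 were tested, with a median log2 fold change of 0.17. At an unadjusted p under 0.05, 1 was higher and 0 lower, against 914 (5.84%) and 872 of all 15645 genes tested, so that 1 of 20 is near that share. The higher one was Cd28, the costimulatory receptor, at 0.630, 0.232 and 0.188 CPM in EMT6-P and 0.824, 1.5 and 0.738 CPM in EMT6-PTR. Its groups did not overlap, as for 9.52% of all genes in the same direction. Its log2 fold change was 1.52 ± 0.59 (edgeR adjusted p = 0.432). The next smallest p-values were those of the adaptor Nck1 (log2 fold change 0.75 ± 0.38, edgeR adjusted p = 0.476) and of Bcl10, which links the receptor to NF-κB (-0.30 ± 0.18, edgeR adjusted p = 0.519). Both are expressed well beyond T cells. Prkcq, a kinase of T cells and of skeletal muscle, chosen after its values were seen, was at 7.42 CPM in EMT6-PTR replicate 1, the tumor highest in muscle markers, and between 0.0389 and 1.03 CPM in the other primary tumors. The part of muscle in the Prkcq level was not tested. Lat, the T cell adaptor that Zap70 phosphorylates, had 0.921, 0.604 and 0.797 CPM in EMT6-P and 0.651, 1.55 and 0.272 CPM in EMT6-PTR, the same order of the 6 tumors as that of Cd3e. Lat was chosen after its values were seen.

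Of 19 inhibitory genes, 18 were tested, with a median log2 fold change of -0.004. At an unadjusted p under 0.05, 0 were higher and 1 was lower, where 872 of all 15645 genes tested were lower, so that 1 of 18 is near that share. The lower one was Dok2, an adaptor that recruits negative regulators of Ras in myeloid and T cells. It had 14.9, 9.34 and 6.66 CPM in EMT6-P and 5.77, 5.54 and 2.68 CPM in EMT6-PTR. All EMT6-PTR values lay below those of EMT6-P, as for 1845 of the 15645 genes. The log2 fold change of Dok2 was -1.14 ± 0.42 (edgeR adjusted p = 0.427). Pag1, which anchors the Lck inhibitor Csk at the membrane, and Cblb, a ubiquitin ligase that restrains the receptor signal, were next, at 0.47 ± 0.23 and 0.55 ± 0.27 on the log2 scale (edgeR adjusted p = 0.468 and 0.469). Of 16 T cell lineage and state genes, 11 were tested, and 3 were higher and 0 lower at an unadjusted p under 0.05. Over all genes tested, 5.84% were higher at that p. Cd69, an early activation marker of many leukocytes, measured 5.62, 7.39 and 6.28 CPM in EMT6-P and 6.51, 22.8 and 34.1 CPM in EMT6-PTR (log2 fold change 1.72 ± 0.56, edgeR adjusted p = 0.427). Here EMT6-PTR replicate 3 was the highest tumor, unlike for any member. The same tumor was highest for Il2rb, a chain of the interleukin receptors of T and NK cells (1.27 ± 0.48, edgeR adjusted p = 0.432), and for Gata3, a factor of helper T cells that mammary epithelium also expresses (1.55 ± 0.62, edgeR adjusted p = 0.433).

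Marker lists of other cell types differed between the same tumors. NK cell markers, on cells that share Cd247, Lck and Zap70, summed to 2.86, 1.58 and 1.83 CPM in EMT6-P and 2.34, 5.76 and 1.13 CPM in EMT6-PTR. The sum was highest in EMT6-PTR replicate 2, as that of the members was, and Klrc1, at 2.10 CPM, held its largest share there. Of the 8 genes, 3 passed the filter, and 2 of these 3 were highest in that tumor. Klrb1c was not, at 0.942 CPM there against 1.17 CPM in EMT6-P replicate 3 (log2 fold change -0.40 ± 0.93, edgeR adjusted p = 0.875). Klra8 and Klra4 were at 0 in all 6 primary tumors, which allows up to 3 counts in each. Whether the Balb/c strain carries Klra8 and Klra4 was not tested, so these zeros give no measure of NK cells. The defining NK cell receptor Ncr1 was between 0 and 0.443 CPM, and 0 in EMT6-P replicate 3 and EMT6-PTR replicates 1 and 3. B cell markers summed to 1.16, 0.604 and 1.36 CPM in EMT6-P, 1.26, 10.5 and 6.88 CPM in EMT6-PTR and 29.0 CPM in the metastasis. Of these 8 genes 1 passed the filter, and Pax5, the factor that commits cells to the B lineage, was at 0 in EMT6-P replicate 3 and EMT6-PTR replicate 1. The B cell list was thus high in EMT6-PTR replicate 3, where the members were not. Macrophage markers, all 8 of them tested, summed to 1936 to 3145 CPM in the primary tumors, and the sum was highest in EMT6-PTR replicate 1. Lyz2 held the largest share of it, at 1391 CPM, and the 8 genes did not share 1 highest tumor. Carcinoma markers summed to 2148 to 2388 CPM in 5 primary tumors and 630 CPM in EMT6-PTR replicate 3. The keratins Krt8 and Krt18, at 502 and 73.4 CPM in that tumor, held most of each sum, and not all 8 genes were lowest there. Of 6 thymocyte markers, 1 passed the filter, and Rag2 was at 0 in every library. Its partner Rag1 was at 1.66 CPM in EMT6-PTR replicate 2 and at 0.260 CPM or less in the other libraries. In all 8 marker lists of other cell types together, the only gene with an unadjusted p under 0.05 was Ager, from the lung epithelium list, with a log2 fold change of 3.08 ± 0.74 (edgeR adjusted p = 0.421). DESeq2 called Ager higher in EMT6-PTR. The part of these cell types in the members' levels was not tested.

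**Figure D4:**
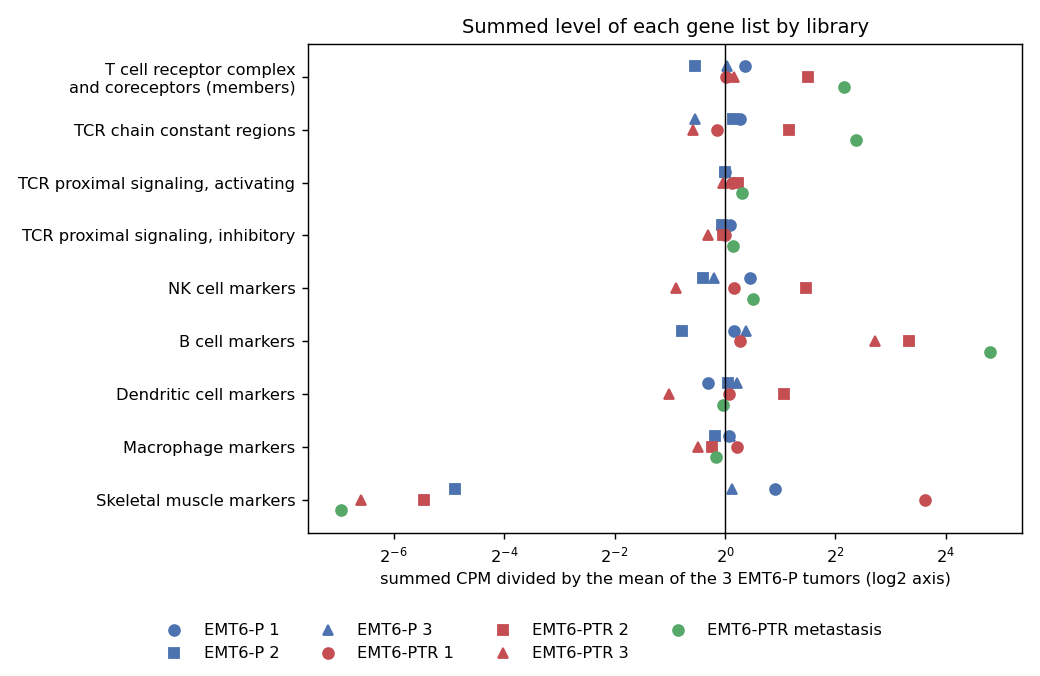
Summed CPM of each gene list in each library, divided by the mean of the 3 EMT6-P tumors (log2 horizontal axis); the vertical line marks that mean. The members, the receptor constant regions and the NK, B and dendritic cell markers share EMT6-PTR replicate 2 (red square) as their highest primary tumor. So do the activating signaling genes, by a smaller factor, and for the dendritic list it holds only through Itgax. Macrophage markers stay near the line.

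Across the 6 primary tumors, log2 CPM was correlated with the mean log2 CPM of Cd3d, Cd3e and Cd3g. Pearson correlations were 0.83 for Cd247, 0.76 for Lck, 0.70 for Cd4, 0.69 for Zap70, 0.67 for Cd8a and 0.64 for Cd8b1. These describe 6 points of which EMT6-PTR replicate 2 is the extreme one. Over all 7 libraries, the 5 genes most like this mean log2 CPM among 5850 variable genes were Cyp7b1 (r = 0.99), Ifi205 (0.99), Plet1 (0.98), Tgm2 (0.98) and Cd6 (0.98). All of them share the metastasis and EMT6-PTR replicate 2 as their high end. Cd6, a T cell surface receptor, measured 0.630, 0.372 and 0.563 CPM in EMT6-P, 0.651, 1.83 and 0.350 CPM in EMT6-PTR and 3.34 CPM in the metastasis. Tgm2, a transglutaminase of many tissues, measured 258, 218 and 269 CPM in EMT6-P, 266, 425 and 202 CPM in EMT6-PTR and 690 CPM in the metastasis.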

How the data were processed

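Tumor RNA was extracted and 7 stranded libraries of polyadenylated RNA were sequenced. Per the labels and the methods, the authors checked reads with FastQC 0.11.5, aligned them with STAR 2.6.0a to GRCm38 with a GENCODE annotation, and estimated counts per gene with RSEM 1.3.1. The deposited values are these estimated counts, not normalized, which RSEM shares among similar genes; all 7 columns were used. Identifiers were matched to GENCODE M21 of the same assembly (53360 of 53465, and all 9 members).

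Counts were rounded, filtered with filterByExpr, scaled by upper quartiles and tested with edgeR 4.0.16 (glmQLFit, glmQLFTest) in R 4.3.3, 3 EMT6-PTR against 3 EMT6-P tumors, with Benjamini-Hochberg adjustment over 15645 genes at 0.05. The standard error is the fold change divided by the square root of F. The correlations used log2 CPM with a prior count of 2. The metastasis entered no test. Intervals and limits cover counting error only. Alternatives were TMM scaling, DESeq2 1.42.0, limma-voom (limma 3.58.1), other filters, the metastasis as a group, a replicate block and each tumor left out. The fits were tested on simulated data.

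The members, the lists and the tests were chosen with earlier results of these data known. Named genes are the members, the constant regions of the receptor chains, up to 3 genes of each further list with the smallest p, and the 5 genes most correlated with the mean of Cd3d, Cd3e and Cd3g among those with an SD of at least 0.5; marker lists are given by their sums. Ptprc, Xcr1, Ncr1, Klra8, Klra4, Pax5, Rag1, Rag2, Itgax, Krt18 and Sftpc fall outside this rule and were chosen after their values were seen. Figures were drawn with matplotlib 3.10.9.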

Additional observations from a re-analysis of the deposited data

How the results depend on the processing

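No alternative called any member, and of all genes tested only DESeq2 called any (281). In every other fit the count of called genes was 0. Left out in turn, the tumors gave a median log2 fold change of the members between -0.10, lacking EMT6-PTR replicate 2, and 1.12, lacking EMT6-PTR replicate 3. Without EMT6-PTR replicate 2 the sign turned for Cd3e (-0.37), Cd3g (-0.33), Cd247 (-0.62) and Zap70 (-0.33), whose ranges over all left-out tumors reached up to 1.18, 1.12, 1.21 and 1.16. For Zap70 it also turned, to -0.19, when EMT6-P replicate 2 was left out. No other alternative turned the sign of a tested member. With at least 10 counts in every tumor, 5 members could be tested. The depth, at 1 to 136 counts per member in a primary tumor, limits all of these values.

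The replicate numbers are not stated to pair tumors, and deviations from the group means correlated at 0.259, 0.253 and 0.038 between same-numbered tumors. The replicate block left 0 genes called, with 1268 at an unadjusted p under 0.05, and a median of 0.41 for the members. EMT6-P replicate 3 correlated best with EMT6-PTR replicate 1 (0.098).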
